A study of Mus musculus with 6 samples.

Results

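The let-7 family is a group of microRNAs that share 1 seed, the stretch of bases by which a microRNA finds its target messages. The family was taken as every mouse probe of the array named for let-7a, let-7b, let-7c, let-7d, let-7e, let-7f, let-7g, let-7i or miR-98, from either arm of the precursor. This gave 20 of the 1126 mouse probes, 9 of them for the 5p arm and 11 for the 3p arm. Of these, 10 are called measured, with a mean background-subtracted intensity that reached 50 on 3 or more of the 6 arrays, as it did for 372 mouse probes in all. The measured ones were 7 probes of the 5p arm and 3 of the 3p arm, and the other 10 were low.

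The samples were CT26 cells, a mouse colorectal cancer line. The knockdown line carried a short hairpin RNA against TGF-β1 in the vector pSUPER gfp-neo, and the control line a control hairpin in the same vector. RNA was taken from both lines at 24, 48 and 72 h and read on 1 array each, so no time point has a replicate. The labels count the hours as time transfected but describe the lines as stably transfected, so the start of the clock is not settled. They do not say whether a line was 1 clone or a pool. TGF-β1 is a secreted cytokine that signals to the nucleus through SMAD transcription factors, and the array carries no probe for its transcript, so the knockdown was not checked here.

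A let-7 precursor is cut by Drosha and then by Dicer into a duplex, from which the 5p strand is usually loaded into Argonaute. The loaded strand represses messages that drive growth, that of Lin28a among them, and let-7 is known for accumulating as cells differentiate. The RNA-binding protein LIN28 in turn blocks the maturation of let-7 by holding the loop of the precursor, where it contacts the motif GGAG.

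The 9 mature 5p arms are shown first because the members differ by few bases, which bears on how their probes are set against each other below. They are written 5′ to 3′ as in RefSeq (GRCm38.p6), with the seed, bases 2 to 8, in capitals.
let-7a-5p: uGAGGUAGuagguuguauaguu
let-7b-5p: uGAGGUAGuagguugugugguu
let-7c-5p: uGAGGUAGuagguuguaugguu
let-7d-5p: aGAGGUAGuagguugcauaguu
let-7e-5p: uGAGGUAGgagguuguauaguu
let-7f-5p: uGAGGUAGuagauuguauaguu
let-7g-5p: uGAGGUAGuaguuuguacaguu
let-7i-5p: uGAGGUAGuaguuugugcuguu
miR-98-5p: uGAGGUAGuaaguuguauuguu

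All 9 are 22 bases long and have the seed GAGGUAG. They differ from each other at 1 to 6 positions, all outside the seed. Counted from 1 at the 5′ end and written with the base of let-7a-5p first, let-7c-5p differs by A19G, let-7e-5p by U9G and let-7f-5p by G12A. let-7b-5p differs by A17G and A19G, let-7d-5p by U1A and U16C, and let-7g-5p by G12U and U18C. miR-98-5p differs by G11A and A19U. let-7i-5p is the farthest, with G12U, A17G, U18C and A19U. The sequences of the array's own probes were not used here, so how far a probe also binds a relative is unknown, and each value below is the signal of a probe named for that member.

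The 3 measured 3p arms come from the opposite strand of the precursor and do not carry the let-7 seed. They are shown with bases 2 to 8 in capitals because these differ between the 3. The bases of let-7f-1-3p, UAUACAA, are shared with 4 low 3p arms of the family.
let-7a-2-3p: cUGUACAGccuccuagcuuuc
let-7d-3p: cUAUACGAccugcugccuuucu
let-7f-1-3p: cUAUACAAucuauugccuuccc

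The arrays themselves differed widely. The knockdown array of 72 h was the least like the rest, with no correlation above 0.66, so the differences at 72 h rest on an array that stands apart. The number of mouse probes that reached an intensity of 50 ran from 321 to 374. Across the 372 measured probes the knockdown array of 48 h correlated most closely with the control array of 24 h (r = 0.85), and the control array of 48 h with the knockdown array of 24 h (r = 0.85). The 2 arrays of 24 h correlated with each other at 0.84 and the 2 of 48 h at 0.55. Whether the 48 h arrays carry the right labels could not be checked, and an exchange of the pair would turn the sign of every 48 h difference below. The lowest correlation, 0.43, was between the lines at 72 h. The comparison between the lines is therefore also given without 48 h. Among markers of cell type, 2 of 17 probes of the epithelial list were measured, miR-200c-3p and miR-141-5p, so no probe of miR-200a, miR-200b, miR-429, miR-192, miR-194 or miR-215 was measured in this line labelled as colorectal cancer. Intensities were summed over every probe of a list, measured or low, with probe means below 0 set to 0. The epithelial sums over all 17 probes were 111 to 572.5 in the knockdown and 91 to 258 in the control. Of the blood, neuron, muscle and liver lists 4 of 10, 3 of 4, 2 of 7 and 1 of 2 were measured. Their sums in the knockdown were 1132 to 2653, 415.5 to 1520.5, 138.5 to 467 and 615 to 1185. In the control they were 1596 to 2317, 530.5 to 768, 412 to 519 and 445 to 586.5. The lists differ in their number of probes, so the sums are not on the same base. Of the fibroblast and smooth muscle list 6 of 8 were measured. Its sums over all 8 probes were 1474 to 5406 in the knockdown and 3385 to 5174 in the control. The part of these lists in the results was not tested.

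let-7g-5p had the widest gap between the lines of the 10 probes at each time point, except at 72 h with median scaling, where let-7a-5p had. At 24, 48 and 72 h its intensity read 361, 2191 and 234 in the knockdown, against 1413, 134 and 1380.3 in the control. The probe was bright on the knockdown array of 48 h and the control arrays of 24 and 72 h, and dim on the other 3, so the lines overlapped. After normalisation its log2 values were 8.96, 10.66 and 8.43 in the knockdown, and 10.66, 8.10 and 10.60 in the control. The normalised scale is used for all differences from here on.

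let-7d-5p and let-7i-5p ran the same way. let-7d-5p had normalised values of 8.59, 9.33 and 8.41 at 24, 48 and 72 h in the knockdown, against 9.87, 7.80 and 9.57 in the control. Its control value at 48 h rested on an intensity of 54.3, just above the cutoff. let-7i-5p had intensities of 446, 924.5 and 148 in the knockdown and 806, 302 and 756.5 in the control. In both, the control was the brighter line at 24 and 72 h and the knockdown at 48 h. let-7d is encoded beside let-7a-1 and let-7f-1 on chromosome 13, and let-7g and let-7i lie on chromosomes 9 and 10, away from other let-7 genes.

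let-7b-5p, which lies next to let-7c-2 on chromosome 15, showed that order as well. Its values were 9.75, 10.67 and 8.98 in the knockdown and 11.02, 9.89 and 10.75 in the control. Its spots disagreed with each other, as described further below, so these means join unlike readings.

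let-7a-5p and let-7c-5p ran the other way at 48 h. let-7a-5p had 8.62, 9.18 and 9.09 in the knockdown against 8.42, 10.93 and 8.27 in the control. It read 1544.5 on the 48 h control array in intensity, and between 135 and 530.3 on the other 5 arrays. let-7c-5p had 9.77, 9.81 and 10.04 in the knockdown against 9.92, 11.08 and 9.67 in the control, again with the control array of 48 h highest. let-7e-5p, from the transcript it shares with miR-99b and miR-125a, had 10.67, 9.89 and 9.57 in the knockdown against 10.62, 11.00 and 10.53 in the control.

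Of the 3p arms, let-7a-2-3p had 8.86, 8.93 and 8.07 in the knockdown against 8.97, 8.48 and 8.76 in the control, lowest on the knockdown array of 72 h. let-7d-3p had 9.66, 8.77 and 8.19 in the knockdown and 8.98, 8.34 and 9.47 in the control, so it differed from its own 5p partner at 24 h, where the 3p arm was higher and the 5p arm lower in the knockdown. let-7f-1-3p was the dimmest measured member, with 7.87, 7.59 and 7.63 in the knockdown against 7.61, 8.23 and 8.41 in the control. It sat just inside the cutoff, reaching 50 on 3 arrays. Just outside were let-7b-3p and miR-98-5p, with 1 array each.

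**Figure D1:**
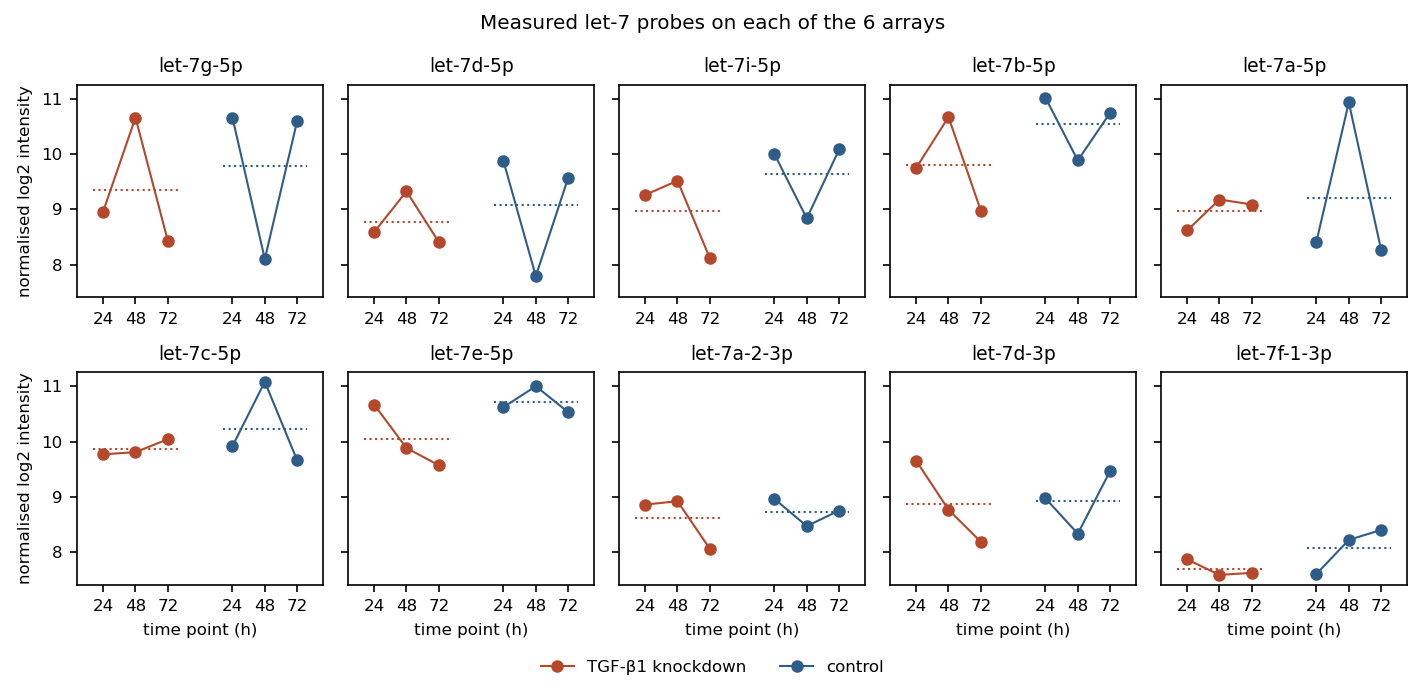
Normalised log2 intensity of the 10 measured let-7 probes at 24, 48 and 72 h in the TGF-β1 knockdown line (left, red) and the control line (right, blue), 1 array per point, with the mean of the 3 arrays of a line dotted. let-7g-5p, let-7d-5p, let-7i-5p and let-7b-5p peak at 48 h in the knockdown and dip at 48 h in the control, and let-7a-5p and let-7c-5p peak at 48 h in the control.

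The first comparison asked whether let-7 differs between the knockdown and control lines over the 3 time points. None of the 10 probes passed the test in limma at an adjusted p of 0.05, and 0% of the 372 measured probes did. At an unadjusted p under 0.05 there were 0 let-7 probes and 1 probe in all. let-7b-5p averaged 9.80 ± 0.85 in the knockdown and 10.55 ± 0.59 in the control (SD, n = 3 each), a difference of -0.75 with 95% bounds of -2.19 and 0.69 (limma adjusted p = 0.998). let-7e-5p averaged 10.04 ± 0.57 in the knockdown and 10.72 ± 0.25 in the control (SD, n = 3 each), so that the lines differed by -0.68, with 95% bounds of -2.03 and 0.67 (limma adjusted p = 0.998). let-7i-5p differed by -0.67. let-7g-5p had the widest interval, from -2.42 to 1.55 around -0.43. No let-7 probe had values that parted the lines without overlap, where 7.26% of all measured probes did. The SD here is over time points, so it holds any change with time as well as the spread between cultures.

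All 10 differences were below 0, from -0.75 to -0.06 with a median of -0.36, but under median scaling 6 of the 10 were above 0 and their median was 0.10. Over all 372 probes the median difference was -0.11 and 57.8% were below 0. Median scaling moved that overall median to 0.24. Relative to the median of all probes, the let-7 median was lower by 0.26 on the log2 scale with quantile scaling and by 0.15 with median scaling. None of the 10 had the same sign at all 3 time points with quantile scaling, against 13.7% of the 372. On that scale 6 of the 10 had a sign at 48 h opposite to that at both 24 and 72 h, against 40.1%. let-7e-5p, at only 0.05 at 24 h, was below 0 at all 3 time points with cyclic loess or no scaling. let-7d-3p was above 0 at all 3 with median scaling. With 48 h left out, let-7g-5p differed by -1.93 (limma adjusted p = 0.269), let-7b-5p by -1.52 (limma adjusted p = 0.499), let-7i-5p by -1.35 and let-7d-5p by -1.22, and let-7a-5p by 0.51. No let-7 probe passed there either, while the count over all probes went to 3. That fit has 4 arrays, so its p-values rest largely on a variance pooled over the 372 probes.

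At single time points each difference sets 1 array against 1 array and has no test. At 24 h, 3 of the 10 probes were at least 2-fold lower in the knockdown and 0 at least 2-fold higher, where 8.47% and 2.66% were of the 413 mouse probes that reached 50 on at least 1 of the 2 arrays. These were let-7g-5p, 3.24-fold lower, let-7d-5p, 2.43-fold lower, and let-7b-5p, 2.41-fold lower. The family median at 24 h was -0.13, and over all 372 probes it was -0.12. With scaling over mouse probes alone the family median was 0.06.

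At 48 h, 2 of the 10 were at least 2-fold higher in the knockdown and 3 at least 2-fold lower, where 21.5% and 13.2% of 441 probes were. With median scaling, cyclic loess or no scaling the counts were 3 higher and 1 lower, as let-7b-5p joined the higher probes and let-7a-5p alone stayed 2-fold lower. Of the 441 probes, 28.1% were higher and 11.3% lower with median scaling, 25.9% and 12.2% with cyclic loess, and 21.5% and 14.1% without scaling. let-7e-5p was 2-fold lower under none of the 4 other scalings. let-7g-5p was 5.89-fold higher, with a standard error over replicate spots of 0.55 on the log2 scale, and let-7d-5p was 2.89-fold higher. let-7a-5p was 3.37-fold lower, let-7c-5p 2.41-fold lower and let-7e-5p 2.17-fold lower. Members that share a seed thus lay on both sides of 0 on the same pair of arrays. The family median at 48 h was 0.44, and over all 372 probes it was 0.19.

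At 72 h, 5 of the 10 were at least 2-fold lower in the knockdown and 0 at least 2-fold higher, where 25.3% and 18.5% of 454 probes were. With median scaling the counts turned to 0 lower and 2 higher, let-7a-5p and let-7c-5p, where 5.95% and 40.1% of the 454 were. let-7g-5p was 4.47-fold lower, let-7i-5p 3.89-fold, let-7d-3p 2.43-fold and let-7d-5p 2.23-fold, and let-7b-5p differed by -1.77 on the log2 scale. The family median at 72 h was -1.06 against -0.39 over all 372 probes, but with median scaling it was 0.15 and only let-7b-5p, let-7g-5p and let-7i-5p stayed below 0. Median scaling put the median of all 372 probes at 0.60 at this time point. let-7g-5p kept its sign under all 5 scalings, from -1.93 to -1.50 at 24 h, from 2.56 to 2.91 at 48 h and from -2.44 to -0.91 at 72 h. So did let-7a-5p, let-7b-5p and let-7i-5p at each time point. let-7f-1-3p read under 50 in the knockdown at 48 and 72 h and in the control at 24 h, so its differences are approximate.

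**Figure D2:**
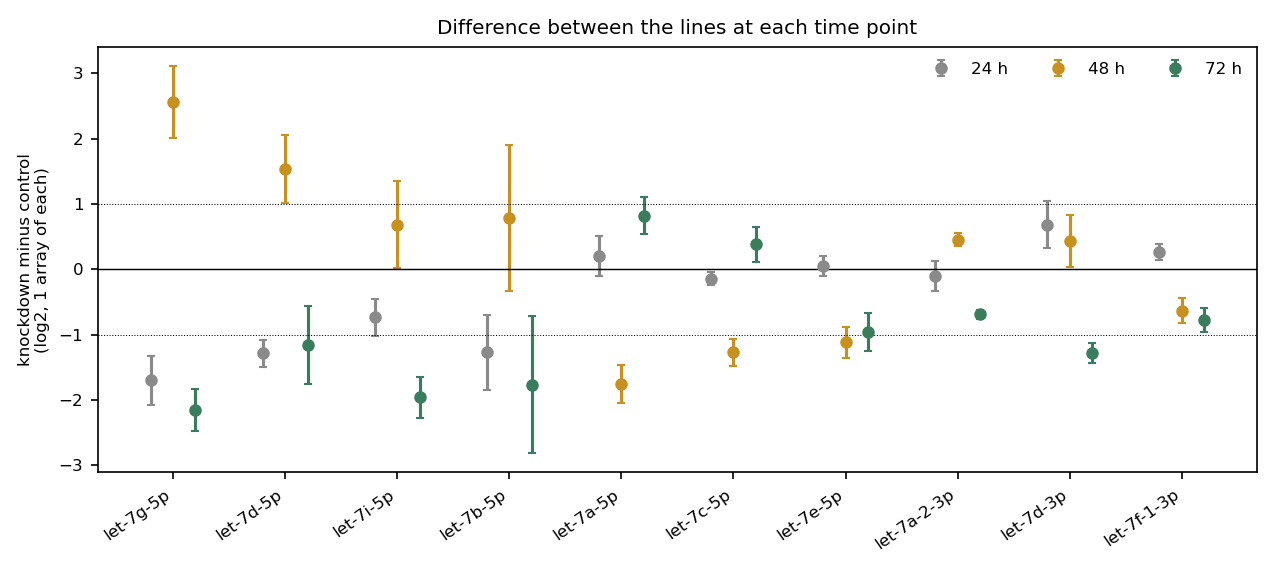
Knockdown minus control on the log2 scale for each measured let-7 probe at 24 h (grey), 48 h (yellow) and 72 h (green), 1 array of each line per point, with bars of 1 standard error over the 4 replicate spots of each array, and dotted lines at 2-fold. let-7g-5p lies at -1.70, 2.56 and -2.16, and let-7a-5p at 0.20, -1.75 and 0.82.

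A further comparison set the difference between the lines at 48 h against their mean difference at 24 and 72 h. It was chosen with the opposite 48 h values already known, so its test is no independent evidence of that pattern. It leaves 1 residual degree of freedom, so its p and interval rest on a variance pooled almost wholly over the 372 probes. They do not measure the spread of a probe's own values. let-7g-5p passed, with a term of 4.49 and a 95% interval from 1.99 to 6.98 (limma adjusted p = 0.0212), where 3.49% of the 372 probes passed. It was 1 of 3 among the 13 passing probes that reached 50 on each of the 6 arrays, and all 13 terms were positive. let-7d-5p had a term of 2.75 (limma adjusted p = 0.372), let-7b-5p of 2.30 (limma adjusted p = 0.497) and let-7i-5p of 2.03 (limma adjusted p = 0.669). let-7a-5p had a term of -2.26 (limma adjusted p = 0.594) and let-7c-5p of -1.39 (limma adjusted p = 0.780). In limma, an unadjusted p under 0.05 was reached by 2 let-7 probes, let-7g-5p and let-7d-5p, and by 48 of the 372 in all.

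The let-7g-5p term ran from 4.13 to 6.78 over 13 alternatives, with adjusted p from 0.00315 to 0.376. It did not pass with median scaling (limma adjusted p = 0.376), with the filter at 50 on all 6 arrays (limma adjusted p = 0.0608), without the time point in the model (limma adjusted p = 0.0714) or from the spots of blocks 19 to 36 alone (limma adjusted p = 0.178). Setting 24 h or 72 h apart in place of 48 h called 0 let-7 probes and 0 probes in all.

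**Figure D3:**
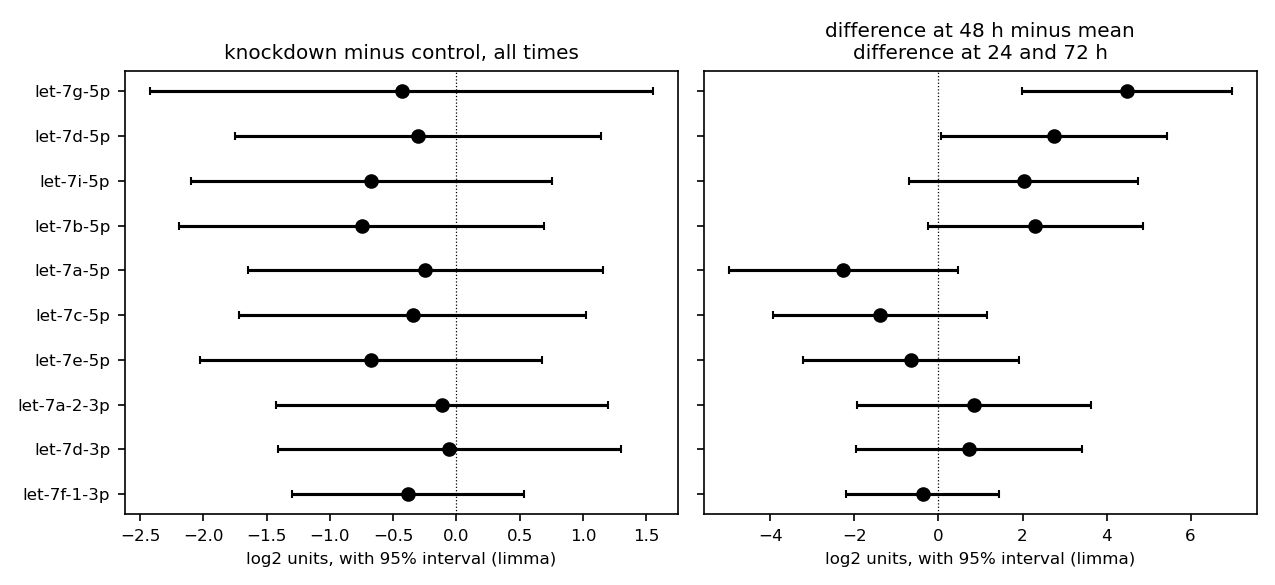
Fitted differences of the 10 measured let-7 probes with 95% intervals from limma, in log2 units: knockdown minus control over all time points (left), and the difference at 48 h minus the mean difference at 24 and 72 h (right). Every interval on the left spans 0. On the right let-7g-5p runs from 1.99 to 6.98 and let-7d-5p from 0.06 to 5.45, and the other intervals span 0.

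Change with time in both lines together was then fitted. The slopes per day of the 10 probes lay between -0.30 (let-7e-5p) and 0.14 (let-7f-1-3p) on the log2 scale, with a family median of -0.20 against -0.02 over all 372 probes. None passed in limma (adjusted p = 0.999 for all 10), and 0% of the 372 probes did, with 9 of them at an unadjusted p under 0.05. The difference in slope between the lines was largest for let-7d-3p, at -0.98 per day with 95% bounds of -2.49 and 0.53 (limma adjusted p = 0.931). No let-7 probe passed there, and 0% of the 372 did, again with 9 at an unadjusted p under 0.05.

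Members close in sequence were not always alike on the arrays. Over the 6 arrays, let-7g-5p and let-7d-5p, which differ at 4 bases, correlated at r = 0.96, and let-7b-5p and let-7i-5p, which differ at 3, at 0.94. let-7b-5p and let-7i-5p gave -0.11 from the spots of blocks 1 to 18 alone and 0.74 from those of blocks 19 to 36. let-7g-5p and let-7i-5p share G12U and U18C and correlated at 0.86. let-7a-5p and let-7c-5p, 1 base apart, correlated at 0.95, whereas let-7b-5p and let-7c-5p, also 1 base apart, gave -0.31. let-7a-5p correlated at -0.79 with let-7d-5p, whose precursor lies 2064 bases from that of let-7a-1, and at -0.66 with let-7g-5p. These are descriptions over 6 arrays that all pairs share, and they carry the scale and print layout of those arrays. Since let-7a-5p is also made from the Mirlet7a-2 locus on chromosome 9, and let-7c-5p from loci on chromosomes 15 and 16, a mature probe does not report on 1 locus.

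**Figure D4:**
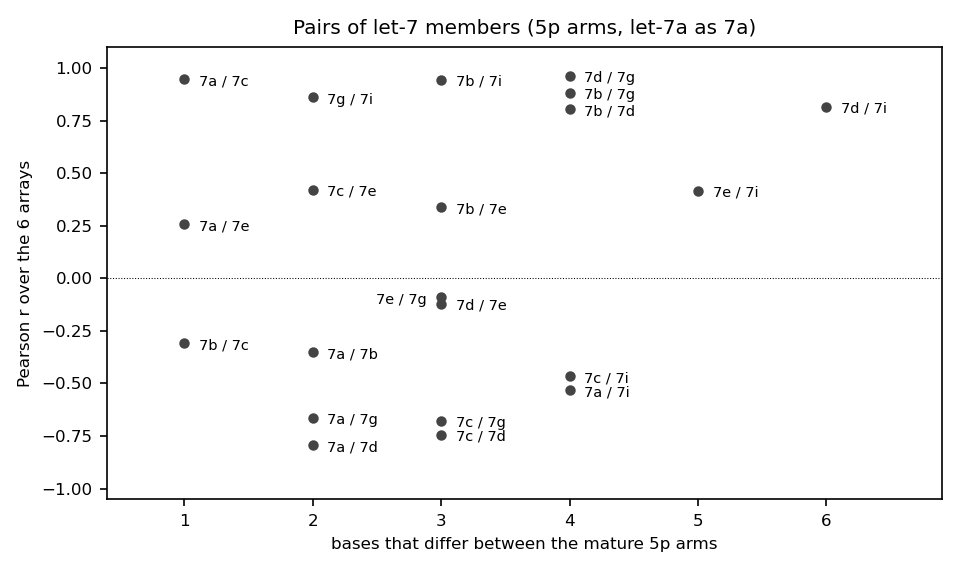
Pearson r over the 6 arrays for the 21 pairs of the 7 measured 5p arms (vertical) against the number of bases by which the 2 mature sequences differ (horizontal), with let-7a written 7a. The 3 pairs that are 1 base apart lie at 0.95, 0.26 and -0.31, and the pair that is 6 bases apart at 0.82.

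The replicate spots bear directly on these values. Each probe is printed as 4 spots, 2 in print blocks 1 to 18 and 2 in blocks 19 to 36, and for several let-7 probes the 2 sets disagreed on the same array. The case of let-7b-5p was the most extreme in the family. In blocks 1 to 18 its intensity was 1449.5, 2449.5 and 1794.5 in the knockdown and 1875.5, 3422 and 2283 in the control. In blocks 19 to 36 it was 285.5, 1452 and 65 in the knockdown and 1743, 58.5 and 943.5 in the control. On the control array of 48 h the first set was 14.0-fold brighter than the second after background correction, the fourth largest gap of 372 probes, and on the knockdown array of 72 h it was 10.1-fold brighter.

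The 2 sets of let-7b-5p spots therefore gave different profiles. From blocks 1 to 18 its values correlated at 0.81 with those of let-7c-5p and at -0.15 with let-7g-5p. From blocks 19 to 36 they correlated at -0.61 with let-7c-5p and at 0.96 with let-7g-5p. At 48 h the difference for let-7b-5p was -0.99 from the first set and 2.69 from the second. For 24 and 72 h let-7b-5p differed by -0.41 and -0.59 in the first set and by -2.21 and -2.47 in the second. Its term for 48 h was -0.50 from blocks 1 to 18, against 2.30 from all 4 spots.

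The profiles of the 2 sets over the 6 arrays correlated at 0.96 for let-7g-5p, 0.92 for let-7e-5p and 0.88 for let-7a-5p, against -0.15 for let-7b-5p. In level, however, the sets of let-7g-5p were at least 2-fold apart on 3 of the 6 arrays, those of let-7b-5p on 4, and those of let-7a-5p and let-7e-5p on 0. In blocks 1 to 18 let-7g-5p read 561.5, 3364 and 330.0 in the knockdown and 1662, 251 and 1663.5 in the control. In blocks 19 to 36 it read 161, 1018 and 138 in the knockdown and 1163.5, 16.5 and 1097 in the control, so the control array of 48 h was lowest in both sets. At 48 h its difference was 2.35 from the first set. No exact difference is given from the second, whose control reading of 16.5 lay under 50. For let-7i-5p the difference at 48 h was 1.46 from the first set and -0.17 from the second, and for let-7d-5p it was 2.03 from the first, with the control reading of the second at 49.5. At 72 h let-7d-5p differed by -1.97 in the first set and by -0.02 in the second. The family median at 48 h was -0.65 from blocks 1 to 18 and 0.22 from blocks 19 to 36.

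Gaps of this kind were seen across the arrays. Between 3.76% of the 372 probes (control, 24 h) and 16.1% (knockdown, 48 h) had sets at least 2-fold apart on an array, and the sets correlated at 0.77 on the control array of 48 h and 0.93 on that of 24 h. Up to 3 of the 10 let-7 probes were 2-fold apart on an array.

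**Figure D5:**
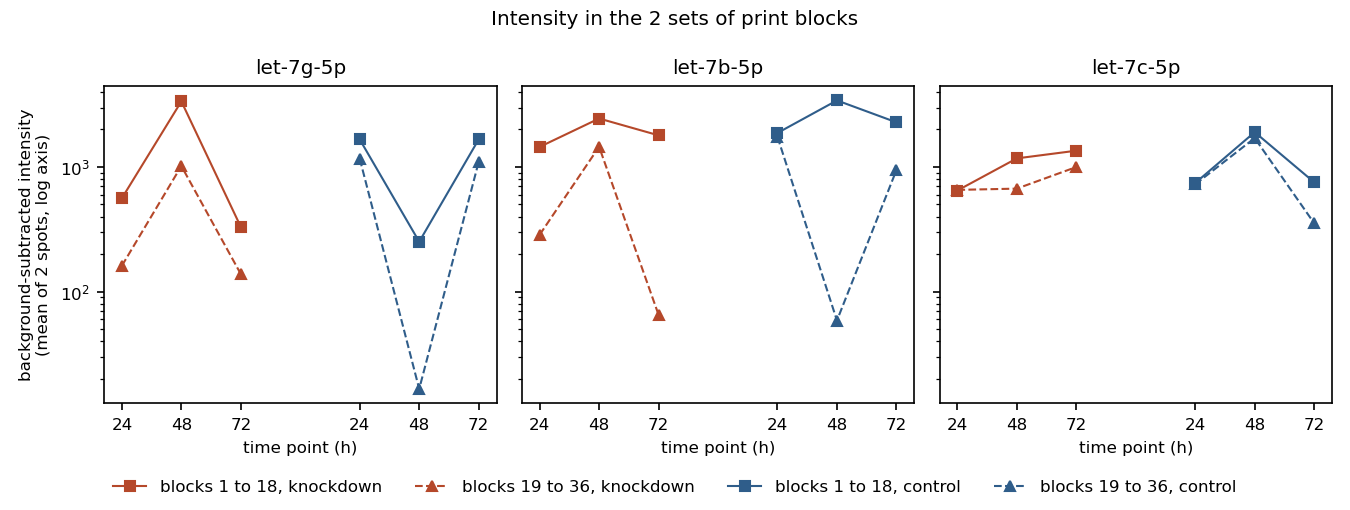
Background-subtracted intensity (log axis) of let-7g-5p, let-7b-5p and let-7c-5p at 24, 48 and 72 h in the knockdown (left, red) and the control (right, blue), as the mean of 2 spots in print blocks 1 to 18 (squares) and in blocks 19 to 36 (triangles). The sets of let-7b-5p part to 3422 and 58.5 on the control array of 48 h, where those of let-7c-5p stay at 1903.5 and 1706.

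The 10 low probes covered the rest of the family. Among them were 2 guide strands, let-7f-5p and miR-98-5p. let-7f-5p read between -14.0 and 43.8 and never reached 50. miR-98-5p reached 64.3 on the knockdown array of 48 h and lay at -48.3 on the control array of 48 h. The other 8 were 3p arms, including a probe shared by let-7a-1-3p and let-7c-2-3p. let-7b-3p reached 134 on the control array of 48 h and stayed under 3 on the other 5. Of the 10 low probes 6 were below 0 on every array, so these values give no level and no fold. Of the other mouse microRNAs in RefSeq with the seed GAGGUAG, miR-1961 had a probe, and it was low, between -35.8 and 79.0.

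The LIN28 motif was looked for in the precursors. GGAG stood between the arms in 8 of 11 let-7 hairpins with both arms in the RefSeq table (72.7%), searched on the strand of the RNA, against 8.07% of all 644 such mouse hairpins. It was absent from the loops of let-7b, let-7c-2 and miR-98. The let-7g hairpin is shown because that member passed a test, with GGAG in capitals. It lies at chr9:106178840-106178927 on the plus strand of GRCm38.p6.
Mirlet7g: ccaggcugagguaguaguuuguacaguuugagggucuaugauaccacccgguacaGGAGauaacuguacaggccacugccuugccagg
The match is a description of the letters. Among measured members, let-7g, let-7d and let-7i hold it and let-7b does not, while let-7a-1, let-7c-1 and let-7e hold it too.

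Several let-7 precursors are cut from transcripts that also carry miR-99, miR-100 or miR-125, and these neighbours were followed for that reason. Of their 11 probes 6 were measured and none passed, either over all time points or at 48 h. 4 differences were below 0 and 2 above, with a median of -0.35, against -0.36 for let-7. miR-99a-5p, encoded 656 bases from let-7c-1, averaged 8.93 ± 0.50 in the knockdown and 10.04 ± 0.58 in the control (SD, n = 3 each), a difference of -1.11 (limma adjusted p = 0.998). miR-125a-5p, encoded 367 bases from let-7e, differed by -0.73 in the mean, and by -0.89, 0.56 and -1.88 at 24, 48 and 72 h. miR-125b-5p differed by -0.72, 1.48 and -1.19. miR-99b-5p, from the let-7e transcript, differed by -0.55 in the mean, and the 3p arms miR-99b-3p and miR-125b-1-3p by 0.21 and 0.32. Both miR-125 probes of the 5p arm had the order seen in let-7g-5p, whereas miR-99a-5p lay below 0 at all 3 times. The neighbour medians at 24, 48 and 72 h were -0.11, 0.44 and -1.17.

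Outside the family, the probes most like the mean of the 7 measured 5p arms were sought among 183 probes that reached 50 on each of the 6 arrays. They were miR-24-3p (r = 0.96), miR-130a-3p (r = 0.93), miR-697 (r = 0.93), miR-20a-5p (r = 0.92) and miR-140-3p (r = 0.91). The least like were miR-767 (r = -0.94) and miR-433-5p (r = -0.93). miR-24-3p had values of 9.53, 10.34 and 8.58 in the knockdown and 10.67, 9.43 and 10.39 in the control. None of these 7 passed the test between the lines, and the ranking is a description over 6 arrays. The mean joins 5p arms with opposite profiles, such as let-7a-5p and let-7d-5p (r = -0.79). It therefore stands for no profile shared by all the measured 5p arms.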

How the data were processed

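RNA was labelled with Hy3 and hybridised to a 1-colour microRNA array of locked nucleic acid probes, per the labels' protocols. For each of the 15840 spots of an array the authors deposited 2 intensity columns, foreground and foreground minus background, not scaled between arrays, per the file headers. Scanner software and array version are not given in the sources used here. The authors also deposited a ratio per probe, which equalled the median background-subtracted intensity divided by 1 number per array (313.5 to 397) for 100% of filled values within a relative tolerance of 1e-06. How that number was chosen is unknown.

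Intensities were corrected with normexp at an offset of 50 (limma 3.58.1, R 4.3.3). The log2 spot values were averaged per probe and quantile normalised over 3439 mouse, viral and unnamed probes. The limma model, with trend and robust variances, was fitted on all 372 measured mouse probes with time as a factor, and p-values were adjusted by Benjamini-Hochberg over all of them. Tested on simulated data, this comparison between the lines missed nearly all 2-fold changes and most 4-fold ones, and the 48 h term most 16-fold ones, so a count of 0 does not show that the lines are alike. Arrays that share a time point did not deviate together from the means of their lines (r of -0.30 at 24 h, -0.52 at 48 h and -0.34 at 72 h). As labelled, the shared time point thus gave no sign of pairing. An exchange of the 48 h arrays would change these values, so pairing is not settled.

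The members, lists and tests were chosen with earlier results of these data known. All members, the measured neighbours, the seed relatives and the 5 most and 2 least like probes were named. The 2 sets of print blocks were compared after seeing the data. Per the series' design text the cultures were grown and harvested separately, and the number of arrays limits the precision. Sequences are RefSeq's (GRCm38.p6), and 21 of 21 mature names matched.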

Additional observations from a re-analysis of the deposited data

Results flagged for a closer look

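The difference between the lines for let-7g-5p was not the same at 48 h as at 24 and 72 h. By a test of that difference itself, the 48 h difference exceeded the mean of the other 2 by 4.49 on the log2 scale (limma adjusted p = 0.0212), with 1 array per line and time point. The sign was the same in the spots of blocks 1 to 18 and in those of blocks 19 to 36, but the second set did not pass (limma adjusted p = 0.178) and its control reading at 48 h lay under 50. Nor did the term pass with median scaling (limma adjusted p = 0.376), with no replicate block (limma adjusted p = 0.0714) or with an intensity of 50 on all 6 arrays (limma adjusted p = 0.0608). Whether the 48 h arrays carry the right labels could not be checked. The comparison was chosen with the 48 h pattern known, and its p rests on a variance pooled over all tested probes.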

How the results depend on the processing

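The count of let-7 probes called between the lines was 0 under every alternative run, including no replicate block, which also called 0 of 372. Over all probes it ran from 0 to 3 when a time point was left out, 3 being without 48 h. The let-7 median ran from -0.46 to -0.11 with a time point left out, and was 0.10 with median scaling and -0.10 with the deposited ratios. The 48 h term called 13 of 372 probes. With an intensity of 50 on all 6 arrays it called 1 of 193, and without a filter 21 of 1126. The other settings tested 372 probes. There it called 6 with median scaling, 23 with cyclic loess, 28 with the deposited ratios and 22 without trend and robust variances. It called 26 from blocks 1 to 18, 0 from blocks 19 to 36 (both chosen after seeing the data) and 0 with no replicate block. Among these it called let-7g-5p, but not with median scaling (4.33) or no replicate block (4.49). Nor did it with the filter on all 6 arrays (4.49) or from blocks 19 to 36 (4.76). In those fits 0 let-7 probes passed. The value from blocks 19 to 36 is approximate, as the control reading at 48 h lay under 50. In the fits with 24 or 72 h set apart in place of 48 h, the term called 0. It could not be fitted with a test when a time point was left out. The cause of these changes was not tested, and fewer probes are tested under the stricter filter.

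Signs turned for several probes, each in a comparison that the probe in question did not pass. With median scaling the differences were 0.22 for let-7a-2-3p, 0.30 for let-7a-5p, 0.36 for let-7c-5p, 0.30 for let-7d-3p, 0.17 for let-7d-5p and 0.022 for let-7g-5p. let-7d-3p was at 0.047 with plain background subtraction, 0.0062 with scaling over mouse probes, 0.00069 with the deposited ratios and 0.10 from blocks 19 to 36. let-7d-5p was at 0.11 with plain subtraction, and let-7a-5p at 0.15 with the deposited ratios. Leaving out a time point gave -0.40 to 0.17 for let-7a-2-3p, -0.78 to 0.51 for let-7a-5p, -0.71 to 0.12 for let-7c-5p, -0.42 to 0.56 for let-7d-3p, -1.22 to 0.19 for let-7d-5p and -1.93 to 0.43 for let-7g-5p, which stood at 0.20 without 24 h. The 48 h terms of let-7b-5p and let-7d-3p were -0.50 and -0.29 from blocks 1 to 18, and that of let-7f-1-3p was 0.12 from blocks 19 to 36. At 48 h the family median was -0.65 from blocks 1 to 18. At 72 h it was -1.80 with plain subtraction, 0.15 with median scaling and -0.71 with scaling over mouse probes. The counts at 2-fold under other scalings were chosen after seeing the data. At 48 h, 1 probe was lower with median scaling, cyclic loess or no scaling, against 3. Of the 441 mouse probes 11.3%, 12.2% and 14.1% were, against 13.2%. At 72 h, 0 were lower and 2 higher with median scaling, and 3 lower and 1 higher with scaling over mouse probes, against 5 lower and 0 higher. Of the 454 mouse probes, 5.95% were lower and 40.1% higher with median scaling, 19.4% and 22% with scaling over mouse probes, against 25.3% and 18.5%. At 1.5-fold, 5, 8 and 9 of 10 probes passed in either direction at 24, 48 and 72 h, against 3, 5 and 5 at 2-fold. At 1.5-fold 1, 4 and 1 of them were higher in the knockdown and 4, 4 and 8 lower. The share of all mouse probes at 1.5-fold was not counted, so these counts show nothing particular to let-7.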
